A study of Mus musculus with 32 samples.

Results

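The Sox genes encode transcription factors that bind DNA through an HMG box, and 10 of them were followed here in cultured neural stem cells (NSCs): Sox1, Sox2, Sox3, Sox4, Sox5, Sox6, Sox8, Sox9, Sox11 and Sox21. They were chosen by name, with Sox2 as the stemness factor the study follows, and each symbol was matched to 1 Ensembl gene, giving 10 of the 23035 genes listed in the ribosome footprint tables. All 10 passed the filter on low counts at both times. In the SoxB1 group, Sox1, Sox2 and Sox3 act as transcriptional activators that maintain neural progenitors, while the SoxB2 factor Sox21 acts as a repressor that opposes them. SoxC factors (Sox4, Sox11) are known for promoting neuronal differentiation, SoxE factors (Sox8, Sox9) for glial specification, with Sox9 also needed to set up neural stem cells, and SoxD factors (Sox5, Sox6), which lack a transactivation domain of their own, act as cofactors that modify the activity of other Sox proteins. Sox2 protein forms complexes with POU factors on shared enhancers and is a defining factor of both embryonic and neural stem cells.

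The NSCs came from the ventricular-subventricular zone of C57BL/6 mice aged 8-12 weeks and were expanded in culture with growth factors. The labels name no engineered allele. Cells received either vehicle or interferon-β (IFN-β), a cytokine that signals through the type I interferon receptor, for 2 h or 14 h. Cells of every group, vehicle included, were given cycloheximide, which halts elongating ribosomes, for 5 min before harvest. Ribosome-protected fragments (footprints) and total RNA were sequenced from the same lysates, with 4 libraries of each kind in each of the 4 groups. The replicate numbers of the labels were 2, 3, 5 and 6 at 2 h and 1 to 4 at 14 h. Nothing in the labels ties a library to a culture or a mouse, so the p-values measure the spread between these libraries, which may in part be technical. An IFN-β group and a vehicle group were compared only within a time, because the libraries of the 2 times carry different replicate numbers. For the difference between the effects at the 2 times, all footprint libraries were fitted together.

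Footprint libraries held 4956144 to 9361609 reads in coding sequence (CDS) at 2 h and 2956297 to 10505108 at 14 h. The 8 NSC markers (such as nestin and vimentin) were all detected, with a summed level of 13500 to 17400 CPM (counts scaled to a common library size) at 2 h and 10300 to 13100 CPM at 14 h. At 2 h both libraries numbered 3, vehicle and IFN-β alike, stood apart: their median correlation with the other libraries of their group was 0.960 and 0.961, against 0.990 to 0.991 for the rest. At 14 h the summed level of 6 astrocyte markers was 577 to 670 CPM in vehicle and 1050 to 1270 CPM after IFN-β, with 3 of the 6 passing the filter, and that of 6 microglial markers 5.99 to 8.81 and 21.2 to 26.7 CPM, with Aif1 and Cx3cr1 at 0 and 1 of the 6 passing. At this time ependymal markers also stood apart, at 25.5 to 33.1 CPM in vehicle and 56.2 to 69.4 CPM after IFN-β (4 of 6 passing, Tmem212 at 0), as did neuroblast markers, at 124 to 150 and 151 to 189 CPM (4 of 6 passing). At 2 h the astrocyte sums overlapped (1470 to 2850 CPM in vehicle and 1450 to 2970 CPM after IFN-β), and the microglial sums were 0.557 to 4.29 and 1.01 to 3.12 CPM, with Ptprc, Aif1, Cx3cr1 and Tmem119 at 0. The part of such cells in the results that follow was not tested. In these bulk lysates, fewer cells of one type and fewer footprints per cell cannot be told apart.

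Per length of CDS, the Sox genes covered a wide range of footprint levels. In vehicle libraries at 14 h the order of the levels, in RPKM (CPM per kilobase of CDS, mean ± SD, n = 4), started with Sox2 at 222 ± 5.20, which lay above every other member in all 4 libraries. It was followed by Sox4 (170 ± 3.98), Sox9 (160 ± 8.37), Sox11 (154 ± 7.48), Sox3 (153 ± 16.8) and Sox8 (145 ± 7.61), whose neighbours in this order did not differ beyond their spread. Sox21 (46.3 ± 3.71), Sox6 (32.0 ± 2.52), Sox1 (17.8 ± 0.606) and Sox5 (14.3 ± 0.421) came lower, each below its neighbour in all libraries. At 2 h Sox4 (384 ± 169), Sox2 (361 ± 107), Sox3 (279 ± 29.5), Sox8 (217 ± 84.9) and Sox9 (208 ± 41.6) formed a run of overlapping levels. By mean these were followed by Sox11 (147 ± 16.1), Sox21 (92.6 ± 35.0), Sox1 (29.7 ± 17.03), Sox6 (28.5 ± 2.73) and Sox5 (18.4 ± 3.37). The range of Sox11 overlapped those of Sox8 and Sox21, and that of Sox1 overlapped those of Sox6 and Sox5. After IFN-β the order changed for a few members: at 2 h Sox2 stood at 346 RPKM, Sox4 at 304, Sox11 at 294, above Sox3 at 259, and Sox8 at 81.2, while at 14 h Sox8 (218 ± 12.3) and Sox2 (216 ± 7.18) overlapped at the top.

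**Figure D1:**
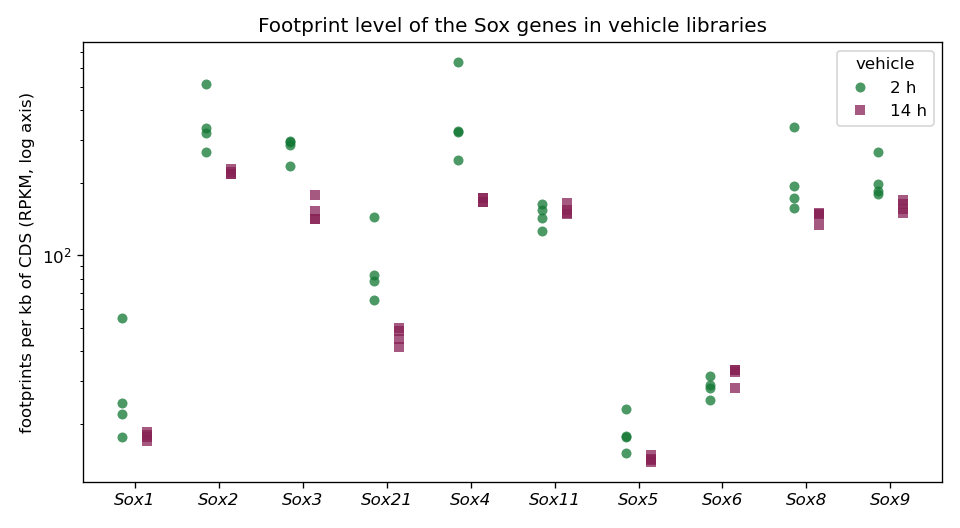
Footprint level per kilobase of CDS (RPKM, log axis) of the 10 Sox genes, ordered by subgroup, in each vehicle library at 2 h (circles) and 14 h (squares). Sox2 stood highest at 14 h, at 222 ± 5.20 RPKM (SD, n = 4), and Sox5 lowest, and the 2 h libraries were spread more widely than the 14 h ones. Levels of the 2 times come from tables normalised separately.

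The sequence around the transcription start is shown for the 4 members on which the results turn, since control of translation by signalling pathways is known to act on the first bases of an mRNA, as in mRNAs that begin with a C and a run of pyrimidines. The lines give 10 bases before and 19 after the RefSeq start (mouse genome GRCm38/mm10), written on the gene's strand, in lower case with the first transcribed base in capitals.
Sox2 (chr3:34649985-34650014, plus strand): cccatcacatGgatggttgtctattaactt
Sox8 (chr17:25570667-25570696, minus strand): tcccagaactGagactgagctactgcggcg
Sox11 (chr12:27342699-27342728, minus strand): ttgagagagaGccctcaactttttgcagaa
Sox21 (chr14:118237011-118237040, minus strand): cccaggatatAcacacacactcacacacgg
None of these 4 starts had a C followed by 4 pyrimidines. RefSeq windows from 250 bases before to 50 after the start were at hand for 8 of the 10 members, 13 windows in all, while Sox3 and Sox9 are named only. No window among the 13 began its transcript with a C followed by 4 pyrimidines, which 2.51% of 32851 windows of all genes did. In the first 50 transcribed bases the longest run of pyrimidines was 3 bases in Sox2 and Sox21, 5 in Sox8 and 6 in Sox11, beside a median of 5 over all windows. One of the 13 windows, at 1 of the 6 starts of Sox6, held a run of 8 or more, which 17.4% of all windows did. The interferon-stimulated response element, searched as GAAANNGAAA on both strands, was in none of the 13 windows and in 3.44% of all windows. The gamma-activated site, searched as TTCNNNGAA on both strands, was in 2 windows, both of Sox6, and in 8.3% of all. These matches describe letters in these windows only. The pyrimidine-rich motif that the paper deleted from the untranslated region before the Sox2 CDS was not searched for. The gene model of Sox2 used for its position (GENCODE M21) spans chr3:34650405-34652461 with a single exon and so starts downstream of the RefSeq start. The model of Sox11, on the minus strand, starts at chr12:27342574, also downstream of its RefSeq start at 27342718. For Sox8 and Sox21 the model and RefSeq starts were the same.

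IFN-β changed the footprints of some Sox genes relative to all genes of a library. Treating the libraries as unpaired gave 2 calls at 2 h and 3 at 14 h, and pairing them by replicate number gave 6 and 4. Sox2 was called in neither fit. Counts scaled to library size cannot show a change of translation shared by all genes. The paper reports a late fall of global protein synthesis. By polysome profiling it reports lower Sox2 translation, subtle at 2 h and strong at 14 h. It also reports a mild fall of Sox2 protein and repression of a reporter carrying the untranslated region before the Sox2 CDS. Scaled footprint counts measure none of these. After 2 h, 2 of the 10 members passed the threshold (edgeR's quasi-likelihood test, Benjamini-Hochberg adjusted p under 0.05): Sox11 rose and Sox8 fell. Over all 12104 genes tested, 7.25% were called, 5.25% higher and 2.01% lower. After 14 h, 3 members were called, Sox8 and Sox21 higher and Sox11 lower, where 52.5% of 12113 genes were called, 26.2% higher and 26.3% lower. The same members were those whose 4 IFN-β libraries did not overlap the 4 vehicle libraries, 2 of 10 at 2 h (12.9% of all genes) and 3 of 10 at 14 h (46.2% of all genes). Libraries that share a replicate number deviated together in the footprint tables, and a fit that blocked on the number called more: 6 members were called at 2 h: Sox1, Sox4, Sox8, Sox9 and Sox21 lower and Sox11 higher. The blocked fit called 29.2% of all genes at 2 h. At 14 h it called 62.8% of genes and 4 members, Sox4 joining the other 3.

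**Figure D2:**
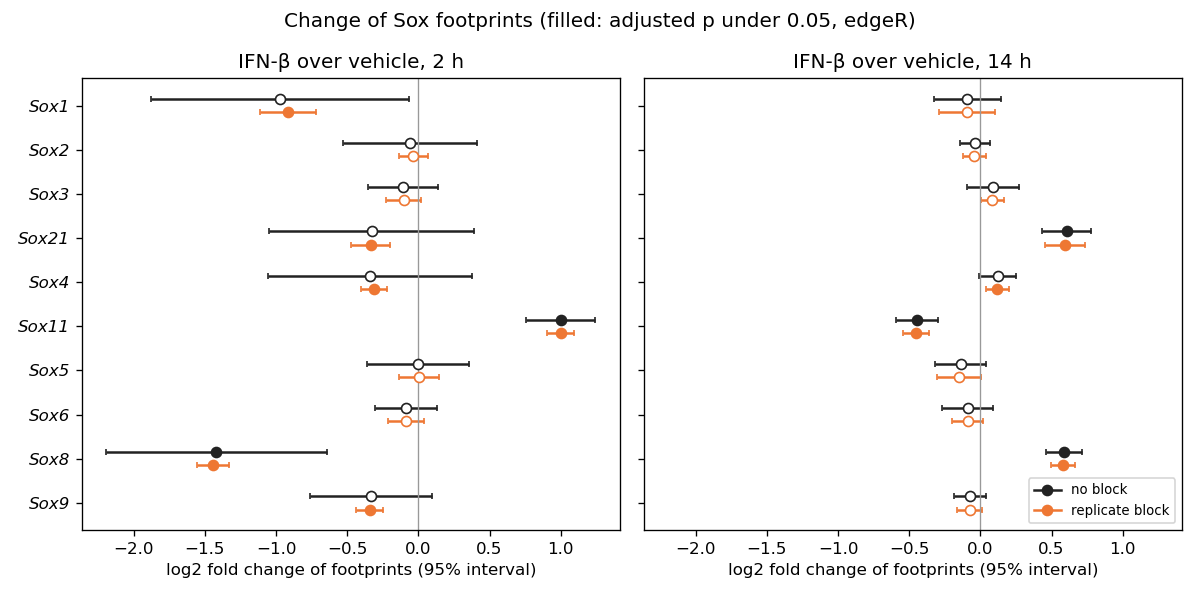
Log2 fold change of footprints, IFN-β over vehicle, for the 10 Sox genes at 2 h and 14 h (n = 4 libraries a group). Fits without and with the replicate block are shown, with 95% intervals derived from edgeR's F test. Without the block Sox11 lay at 1.00 at 2 h and at -0.45 at 14 h, Sox8 at -1.42 and 0.59, and Sox2 at -0.06 and -0.04.

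Sox2 is encoded by a single exon with a CDS of 957 bp and was covered by 2342 to 3537 footprints per vehicle library and 2035 to 2169 per IFN-β library at 2 h. Its normalised level was 256.5, 492.4, 308.0 and 323.1 CPM in vehicle libraries 2, 3, 5 and 6, and 263.7, 412.2, 302.2 and 346.3 CPM after IFN-β. The 2 groups overlapped throughout, and number 3 was the highest library of both. Sox2 differed by -0.06 on the log2 scale (SE 0.21, edgeR adjusted p = 0.949), with a 95% interval from -0.53 to 0.41. Blocking on the replicate number gave -0.04 with an interval from -0.14 to 0.06 (adjusted p = 0.630). The log2 ratio of IFN-β over vehicle within each number ran from -0.26 to 0.10.

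At 14 h the level of Sox2 was 208.8, 211.6, 208.6 and 219.2 CPM in vehicle libraries 1 to 4 and 216.4, 207.0, 201.5 and 202.4 CPM after IFN-β, from 1137 to 2284 and 646 to 1858 footprints. These groups overlapped as well, with means of 212 ± 4.96 and 207 ± 6.82 CPM (SD, n = 4). The difference was -0.04 (SE 0.05, edgeR adjusted p = 0.532) with a 95% interval from -0.14 to 0.07, and from -0.13 to 0.04 with the block (adjusted p = 0.349). The change from 2 h to 14 h in the effect of IFN-β on Sox2, tested as an interaction term, was 0.03 with an interval from -0.44 to 0.51 (adjusted p = 0.931), and 0.01 with an interval from -0.13 to 0.15 with the block (adjusted p = 0.958).

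The other SoxB1 members showed no call in the fit without the block. Sox1, expressed in proliferating neural progenitors, had the second-lowest level per length at 14 h. At 2 h it was at 20.74, 64.46, 28.54 and 25.82 CPM in vehicle libraries 2, 3, 5 and 6 and at 12.98, 29.57, 16.58 and 12.65 CPM after IFN-β. Each IFN-β library lay below the vehicle library of its number, although the groups overlapped through number 3. The difference was -0.97 (SE 0.40, edgeR adjusted p = 0.243) without the block and -0.92 (SE 0.10, adjusted p = 1.48e-08) with it. At 14 h Sox1 was at 19.95 to 21.67 CPM in vehicle and 16.23 to 24.79 CPM after IFN-β, a difference of -0.09 (SE 0.11, edgeR adjusted p = 0.507). Sox3, an X-linked gene close to Sox2 in sequence and function, was at 317.6 to 401.4 CPM in vehicle and 296.9 to 379.2 CPM after IFN-β at 2 h, and at 191.2 to 239.6 and 205.7 to 251.3 CPM at 14 h. Its differences of -0.11 and 0.09 did not pass the test (edgeR adjusted p = 0.746 and 0.408).

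Sox21, the SoxB2 repressor, rose after 14 h. Its level was 37.28, 34.57, 41.52 and 40.02 CPM in vehicle libraries 1 to 4 and 66.0, 59.32, 56.04 and 54.56 CPM after IFN-β. Every IFN-β library lay above every vehicle library. The difference was 0.61 (SE 0.08, edgeR adjusted p = 3.29e-05). At 2 h Sox21 was at 54.16, 119.2, 64.57 and 68.76 CPM in vehicle and 42.43, 100.5, 56.15 and 46.02 CPM after IFN-β. Both libraries numbered 3 stood above the others, and the groups overlapped. This difference of -0.33 (SE 0.32, edgeR adjusted p = 0.725) passed the test with the block only (SE 0.07, adjusted p = 2.44e-04).

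The SoxC members moved differently from each other. Sox11, which is switched on as progenitors commit to the neuronal lineage, had 169.7, 149.7, 183.6 and 193.9 CPM in vehicle libraries 2, 3, 5 and 6 at 2 h and 366.4, 297.7, 354.2 and 374.4 CPM after IFN-β. All IFN-β libraries lay above all vehicle libraries, and number 3, high for most other members, was the lowest of both groups. Footprints of Sox11 rose 2.00-fold, a log2 difference of 1.00 (SE 0.11, edgeR adjusted p = 4.15e-04), and within numbers the log2 ratio ran only from 0.95 to 1.11. At 14 h the direction was the opposite, with 182.7, 177.1, 175.2 and 194.8 CPM in vehicle libraries 1 to 4 and 150.4, 133.6, 121.0 and 133.7 CPM after IFN-β. The groups again did not overlap, and Sox11 fell by 0.45 on the log2 scale (SE 0.07, edgeR adjusted p = 1.08e-04). Its mean level went from 174 ± 19.1 to 348 ± 34.7 CPM at 2 h and from 182 ± 8.83 to 135 ± 12.1 CPM at 14 h (SD, n = 4).

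Sox4, the SoxC partner of Sox11 in neuronal differentiation, had among the highest levels of the family but a wide spread at 2 h, with 328.8, 834.2, 434.9 and 430.9 CPM in vehicle and 275.0, 605.8, 375.5 and 350.9 CPM after IFN-β. The groups overlapped, while each IFN-β library was below the vehicle library of its number. The difference was -0.34 (SE 0.32, edgeR adjusted p = 0.717) and, with the block, -0.31 (SE 0.04, adjusted p = 3.14e-06). At 14 h vehicle libraries held 218.9 to 229.0 CPM and IFN-β libraries 222.9 to 263.3 CPM, and the difference of 0.12 passed the test with the block only (edgeR adjusted p = 0.104 without it and 0.0119 with it).

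The SoxD members, which bias the choice between neuronal, oligodendrocyte and astrocyte fates through their partners, did not pass the test in either direction at either time, with or without the block. Sox5 was at 35.3 to 54.15 CPM in vehicle and 35.69 to 53.27 CPM after IFN-β at 2 h, and at 32.69 to 34.94 and 27.44 to 35.51 CPM at 14 h. Sox6 was at 62.2 to 78.66 and 59.49 to 73.3 CPM at 2 h, and at 70.25 to 83.29 and 67.09 to 88.12 CPM at 14 h. The log2 differences were -0.00 and -0.14 for Sox5 and -0.09 at both times for Sox6 (edgeR adjusted p from 0.169 to 0.998).

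Of the SoxE members, Sox8, a factor of oligodendrocyte and other glial lineages, had the largest difference of the family at 2 h. Vehicle libraries 2, 3, 5 and 6 held 221.9, 482.0, 244.3 and 272.9 CPM and IFN-β libraries 76.12, 195.3, 98.51 and 87.93 CPM. Every IFN-β library lay below every vehicle library, with the number 3 libraries again the highest of their groups. Sox8 fell by 1.42 on the log2 scale (SE 0.34, edgeR adjusted p = 0.0374), and within numbers the log2 ratio ran from -1.63 to -1.30. Without the block this call was lost when any 1 of 7 of the 8 libraries was left out (adjusted p from 0.0501 to 0.136) and held only without IFN-β library 3, while with the block it was -1.44 (SE 0.06, adjusted p = 1.31e-17). At 14 h Sox8 rose, from 188.4, 211.2, 210.1 and 207.6 CPM in vehicle libraries 1 to 4 to 296.2, 304.8, 293.4 and 331.5 CPM after IFN-β. The groups did not overlap, and the difference was 0.59 (SE 0.06, edgeR adjusted p = 3.00e-06), with a 95% interval from 0.46 to 0.71.

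Sox9, the SoxE factor that marks NSCs and astrocytes, was at 272.1 to 408.9 CPM in vehicle and at 202.9 to 343.7 CPM after IFN-β at 2 h. In both groups the highest library was number 3, and the groups overlapped through it alone. The difference of -0.33 (SE 0.19, edgeR adjusted p = 0.451) was called with the block (-0.34, SE 0.04, adjusted p = 6.55e-07). At 14 h Sox9 was at 228.2 to 257.1 CPM in vehicle and 222.6 to 235.4 CPM after IFN-β, a difference of -0.07 (SE 0.05, edgeR adjusted p = 0.267).

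**Figure D3:**
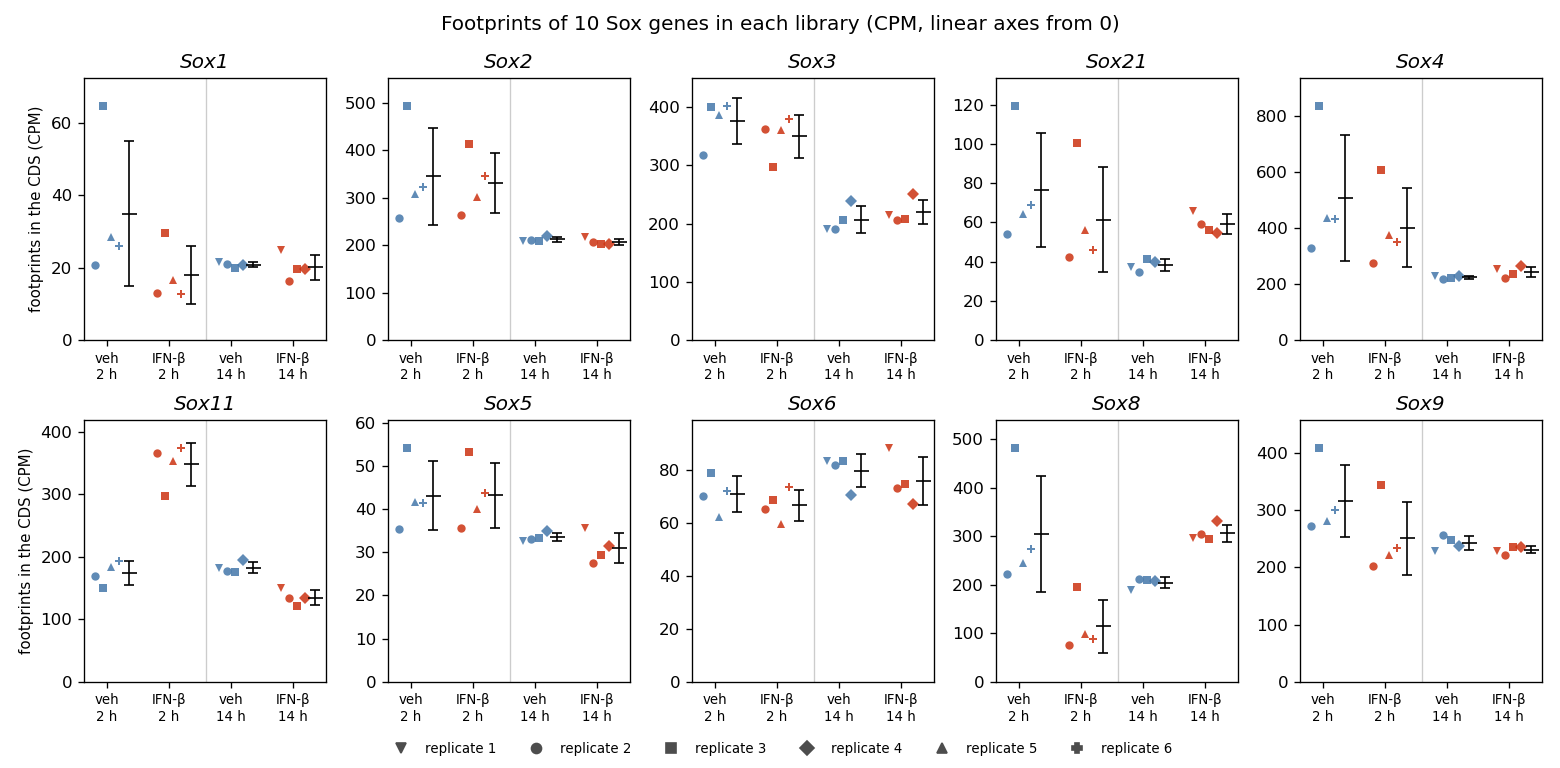
Footprint CPM of each Sox gene in every library, vehicle and IFN-β at 2 h and 14 h, with the group mean and SD (n = 4), one panel a gene with its own axis from 0. Sox11 and Sox8 did not overlap between groups at either time and moved the opposite way at 14 h, Sox21 did not overlap at 14 h, and the number 3 libraries stood high for many members at 2 h.

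**Figure D4:**
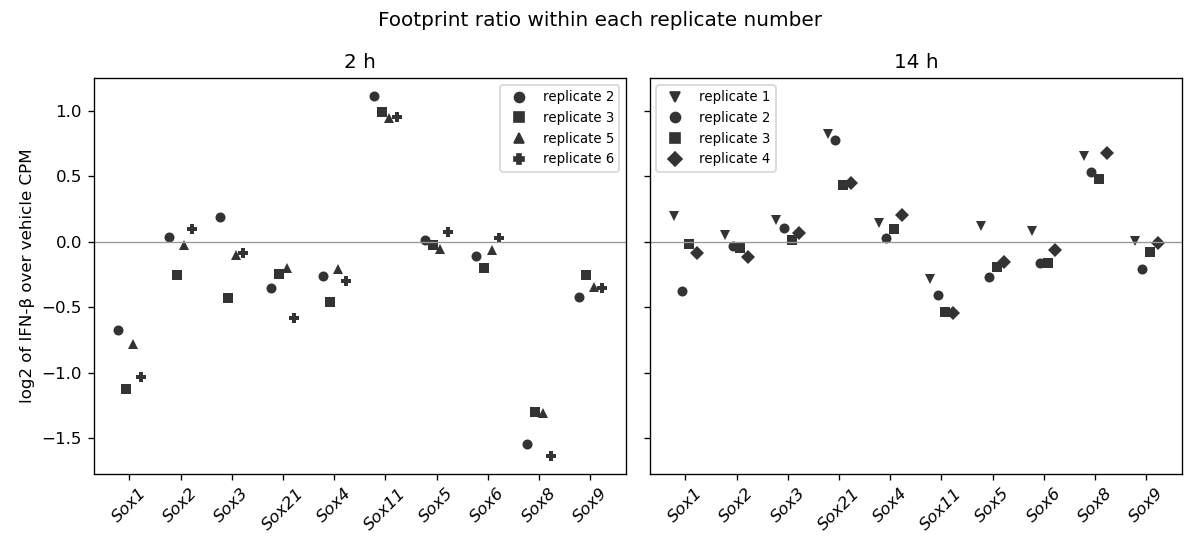
Log2 ratio of footprint CPM, IFN-β over vehicle, within each replicate number at 2 h (numbers 2, 3, 5 and 6) and 14 h (1 to 4). Ratios of Sox11 lay between 0.95 and 1.11 and those of Sox8 between -1.63 and -1.30 at 2 h, while those of Sox2 lay on both sides of 0 at both times.

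The spread at 2 h was shared by both treatments. Relative to the mean of the other libraries of its group, the vehicle library numbered 3 was higher on the log2 scale by 1.38 for Sox1, 1.08 for Sox4, 0.97 for Sox8, 0.94 for Sox21, 0.74 for Sox2 and 0.52 for Sox9, and the IFN-β library of that number by 1.08, 0.87, 1.17, 1.07, 0.45 and 0.65 for the same genes. Sox11 deviated the other way in both (-0.28 and -0.29). When both libraries numbered 3 were left out, a setting chosen after seeing the data, 4 members were called without a block: Sox1 (-0.82, edgeR adjusted p = 0.00311), Sox8 (-1.50, 1.00e-06), Sox9 (-0.38, 0.00361) and Sox11 (1.00, 1.00e-06), while Sox2 was at 0.04.

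The difference between the 14 h and the 2 h effect was tested directly for all 12508 genes, of which 30.9% were called, 15.4% with the later effect higher and 15.5% with it lower. Among the members 3 were called: Sox8, by 2.02 (SE 0.36, edgeR adjusted p = 5.78e-04), Sox21, by 0.96 (SE 0.35, adjusted p = 0.0495), and Sox11, by -1.43 (SE 0.13, adjusted p = 1.29e-06). The call of Sox21 held without IFN-β library 3, vehicle library 2 or vehicle library 5 of the 2 h set and was lost without any 1 of the other 13 libraries (edgeR adjusted p from 0.0549 to 0.0979). With the block 7 were called, adding Sox1 (0.83), Sox3 (0.19), Sox4 (0.44) and Sox9 (0.28), all with the later effect higher. Sox8 and Sox11 were called at both times in opposite directions, which held for 163 of 11817 genes tested at both times (1.38%), 103 lower and then higher as Sox8 and 60 higher and then lower as Sox11. The 2 times differ in replicate numbers and in table, so time and set of libraries cannot be told apart.

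Across the 16 footprint libraries, with the mean of each time removed, log2 levels of Sox8 and Sox11 had a Pearson correlation of -0.920, those of Sox2 and Sox4 0.901, those of Sox1 and Sox9 0.911, and those of Sox2 and Sox3 0.103. These values describe 16 libraries that share replicate numbers and treatments. By the same measure the genes whose pattern was most like that of Sox2, of 10314 compared, were Parvb (0.929), Smoc1 (0.927), Peli2 (0.927), Gpc1 (0.924) and Pcdhgc4 (0.921). With the time means kept they were Parvb (0.981), Ttyh1 (0.977), Mapt (0.975), Mmd2 (0.973) and Scp2 (0.970). At 2 h the libraries numbered 3 held 492.4 (vehicle) and 412.2 CPM (IFN-β) of Sox2, and the others 256.5 to 346.3 CPM. At 14 h all lay between 201.5 and 219.2 CPM. With the time means removed, the correlations with Sox2 thus lean on the 2 h libraries numbered 3. Shared control of these genes was not tested.

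Genes that work with or under these factors were taken from lists made from textbook knowledge. The genes called at 2 h are named because they were few, after their values were seen. The counts below stand beside the shares of all genes given above, 7.25% called at 2 h (5.25% higher, 2.01% lower) and 52.5% at 14 h (26.2% higher, 26.3% lower). Of 24 tested partners and targets of Sox2 in neural stem cells, 3 were called at 2 h, all lower (edgeR, adjusted as above): Lhx2 (-0.57), Nr2e1 (-0.86), an orphan receptor that keeps NSCs undifferentiated, and Gli2 (-1.20), an effector of Hedgehog signalling. Their median was -0.13, beside -0.02 over all genes. At 14 h 3 rose, Chd7 (0.31), a chromatin remodeller that binds Sox2, Pou3f3 (0.25) and Hes1 (0.23), and 7 fell, among them Gli3 (-0.69), Nr2e1 (-0.47) and the fatty acid binding protein Fabp7 (-0.40), with a median of -0.09 beside 0.00 over all genes. Of 13 SoxC partners and targets, 2 were called at 2 h, Klf4 (1.59) and Dpysl3 (0.69), both higher, with a median of 0.04 over the list. At 14 h 12 could be tested, of which Prox1 (0.74) and Tubb3 (0.23) rose and 5 fell, among them Stmn1 (-0.86), a microtubule regulator, Tcf3 (-0.33) and Mex3b (-0.24), with a median of -0.07.

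In the glial list of SoxD and SoxE partners and targets, 3 of 19 were called at 2 h, all lower, Olig1 (-0.55), Olig2 (-0.98) and Nkx2-2 (-1.02), each a transcription factor of the oligodendrocyte lineage. The median was -0.26. At 14 h 4 of 17 rose, among them Apoe (0.70), Slc1a2 (0.63) and the nuclear factor Nfix (0.47). Another 3 fell, Fgfr3 (-0.33), Slc1a3 (-0.36) and Nfib (-0.41), and the median was -0.01. Of 18 genes known to modify or bind Sox proteins or mRNA, 2 rose at 2 h, Trim25 (3.77), an interferon-induced ubiquitin ligase, and Tcf7l2 (0.41), and the ubiquitin ligase component Fbxw7 (-0.66) fell, with a median of 0.05. At 14 h 4 of the 18 rose, among them Trim25 (5.33), Wwp2 (0.44), a ubiquitin ligase for Sox2, and Tcf7l2 (0.40), and 8 fell, among them Cdk2 (-1.26), Ube2s (-0.86), and Xpo4 (-0.63), an importer of Sox2, with a median of -0.12.

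The total RNA tables could not be read as mRNA levels of these genes. Sox1 and Sox2 had 0 counts in all 16 total RNA libraries. Sox2 lies inside the longer gene Sox2ot on the same strand (chr3:34104270-34682619), and Sox1 inside Sox1ot (chr8:12385771-12436768). Sox1ot was among the genes counted in total RNA, while this Sox2ot gene was not. Of 17 genes with a mean of at least 1000 footprints that lie inside a gene of the same strand, 14 (82.4%) were at 0 in all 16 libraries, against 3 of 415 (0.723%) that overlap another gene in part and 0 of 1234 with no such overlap. The longer gene was taken from the annotation and need not itself be counted in total RNA. Why Sox1 and Sox2 had 0 counts was not tested.

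Counts of other genes were low for their abundance. In vehicle libraries at 2 h Actb had 45963 to 69583 footprints but 151 to 444 total RNA counts, and Vim 35558 to 47807 and 21 to 82. The library kit keeps strand, and the strand setting of the counting is not given in the sources used here. Among 165 pairs of overlapping genes on opposite strands in which 1 gene had a mean of at least 1000 footprints, the other gene had more total RNA in 121 (73.3%) at 2 h and 123 (74.5%) at 14 h. Sox4 and Sox8 belong to such pairs and differed in direction: Gm26735, opposite Sox4, had 3586 to 21432 counts at 2 h where Sox4 had 333 to 722, while 2810468N07Rik, opposite Sox8, had a mean of 3.0 counts where Sox8 had 30.12. Sox21, with too few footprints for this count of pairs, had 35 to 94 counts where Gm4675, opposite to it, had 576 to 1810. Which strand these counts came from was not tested beyond this comparison.

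**Figure D5:**
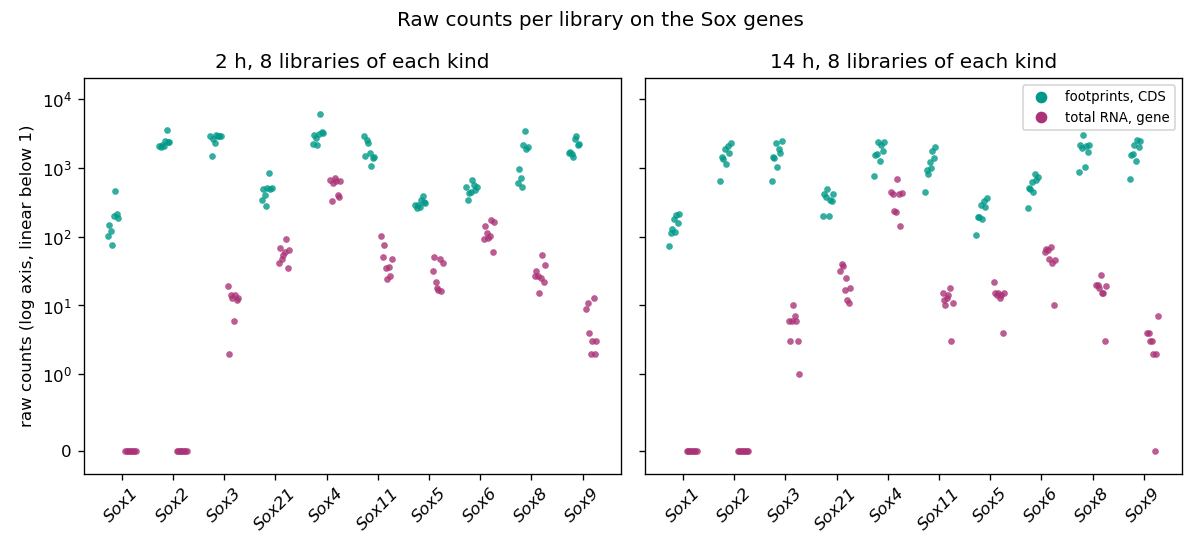
Raw counts of the Sox genes in footprint and total RNA libraries at 2 h and 14 h, one point a library, with 0 shown at the foot of the log axis. Sox2 had 2342 to 3537 footprints per vehicle library at 2 h and 0 total RNA counts in all 16 libraries.

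With that limit, no member was called in total RNA by edgeR, with the filter used throughout and no block, at either time, nor by limma, where 0.799% of genes were called at 2 h and 6.3% at 14 h. Before adjustment 2 members were under 0.05 at 2 h, Sox8 (-0.62) and Sox11 (0.75), where DESeq2 called none, and 1 at 14 h, Sox4 (-0.78, edgeR adjusted p = 0.0694), which DESeq2 called (-0.77, adjusted p = 0.0336), as did edgeR with a filter on a mean of 50 counts (-0.87, adjusted p = 0.0376) and with the block (-0.81, adjusted p = 0.0368). Translational efficiency, the change of footprints over that of total RNA, was tested in 1 model at a threshold of 0.1. At 2 h 0.815% of genes were called, but 0 members by edgeR, DESeq2 or limma, and 0 before adjustment. At 14 h 8.45% of genes were called, 4.49% higher, and Sox4 had 0.84 (SE 0.26, edgeR adjusted p = 0.0507). That call was lost without the footprint and total RNA libraries of IFN-β replicate 3 or 4 or of vehicle replicate 1 or 2 (adjusted p from 0.116 to 0.160), and it rests on the total RNA counts just described. With 0 total RNA counts, Sox1 and Sox2 have no interpretable efficiency, and no value is given.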

How the data were processed

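Ribosome footprints and total RNA of NSCs were measured in 32 libraries. After trimming with TrimGalore and alignment to the mm10 transcriptome with Bowtie, the authors removed duplicates and deposited raw counts per gene (footprints in CDS, total RNA in the whole gene body, SummarizeOverlaps in Union mode). Groups came from the labels. The 10 members and all gene lists were chosen with earlier results of these data known. Gene IDs were named through GENCODE M21 (22282 of 23035 matched in the footprint tables). A gene was tested where 4 or more libraries held 10 or more counts. The whole table of each time was fitted with edgeR 4.0.16 (TMM, quasi-likelihood test, R 4.3.3) and p-values were adjusted after Benjamini-Hochberg, with a threshold of 0.05 (0.1 for translational efficiency, the interaction of library kind and treatment). CPM used TMM library sizes, and RPKM the CDS length. Scripts were tested on simulated data with 200 genes changed by 1 on the log2 scale. The footprint fits recovered 100% of these at 2 h and 14 h, and that of the difference between times 80.5%. The simulated libraries were independent, with the same dispersion for every gene and changes only in well-covered genes. They held none of the deviations that same-numbered libraries share, so these percentages do not carry over to the real 2 h libraries. There Sox1 differed by -0.97 (SE 0.40) without a call, so an uncalled member at 2 h may have changed too. Efficiency at 14 h recovered only 24.5%, with 12.5% false among its calls, so a member without a call there may still have changed.

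Same-numbered footprint libraries deviated together (correlations 0.345 to 0.821 at 2 h and 0.203 to 0.434 at 14 h), so the numbers pair them, while those of total RNA did not (-0.48 to 0.39). Named were all members, at most 3 called genes in each direction of each list at 14 h with a mean of 50 or more counts, and the 5 genes most like Sox2. Total RNA and efficiency values are given only for members whose mean total RNA count reached 20 in each group. Alternatives were DESeq2 1.42.0, limma 3.58.1 (voom), no filter, a filter on a mean of 50 counts, scaling by total counts, the replicate block and leaving out each library. Depth was 3992402 to 7877753 counts for total RNA at 2 h and 1370008 to 2737111 at 14 h. The SE of edgeR was derived as the log2 difference over the square root of its F statistic, and intervals from it with t quantiles.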

Additional observations from a re-analysis of the deposited data

Results flagged for a closer look

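In 3 of the 40 groups of 4 footprint libraries (10 genes in 4 groups), 1 library lay far from the others of its group by Dixon's criterion, which chance meets in about 1 in 20 groups. Sox3 was at 317.6 CPM in vehicle library 2 at 2 h, where the nearest other library had 387.4. Sox6 was at 70.25 CPM in vehicle library 4 at 14 h, next to 81.57, and Sox8 at 188.4 CPM in vehicle library 1 at 14 h, next to 207.6.

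The effect of IFN-β on footprints differed between 14 h and 2 h by the interaction test for Sox8 (2.02), Sox11 (-1.43) and Sox21 (0.96) on the log2 scale, as given above.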

How the results depend on the processing

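Other size factors, total-count scaling, DESeq2, limma and both other filters called the same members in all 3 footprint comparisons. The number of members called in footprints at 2 h was 2, ranging from 1 to 2 when single libraries were left out (Sox11 alone in 7 of the 8 fits) and 6 with the replicate block. With the block and without number 2, 3, 5 or 6 (chosen after seeing the data) it was 7, 6, 6 and 6, and without both libraries numbered 3 and no block 4. At 14 h it was 3, or 4 with the block, and 3 to 4 when libraries were left out. For the difference between times it was 3, 7 with the block and 2 to 5 when libraries were left out, with 5 without IFN-β 2 h library 3 and 2 in 13 of the 16 fits, all without Sox21. Over all genes the block moved the calls at 2 h from 878 to 3538, with 72.3% and 54.3% of them higher, and those of the difference from 3867 to 6944. In total RNA at 14 h no member was called, and none when libraries were left out (0), against 1 (Sox4) with DESeq2, with a mean of at least 50 counts and with the replicate block. Efficiency at 14 h gave 0 to 1 calls when libraries were left out.

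Values that changed sign all belonged to members without a call in that comparison in the fit without the block, although Sox4 was called at 2 h with it and Sox3 with the block without number 2. In footprints at 2 h Sox2 was 0.0351 with the block without number 3 and 0.0363 without both libraries numbered 3, and -0.18 to 0.16 when single libraries were left out. Sox3 was 4e-04 with the block without number 3. Sox4 ranged from -0.60 to 0.0134 when libraries were left out. Sox5 was 0.0027 with the block, 0.0096 and 0.0209 with the block without number 3 or 5, 0.0102 without both libraries numbered 3, and -0.11 to 0.12 when libraries were left out. At 14 h Sox1 ranged from -0.17 to 3e-04. For the difference between times Sox2 ranged from -0.18 to 0.16 and Sox6 from -0.0472 to 0.0862. In total RNA at 2 h Sox4 was -0.0281 with voom, -0.0316 with the block and -0.28 to 0.26 when libraries were left out, and Sox5 was 0.0357 with total counts and -0.41 to 0.0905. For efficiency at 2 h Sox4 ranged from -0.82 to 0.17 and Sox21 from -0.18 to 0.32, and total-count scaling gave Sox5 -0.13, Sox6 -0.0231, Sox11 -0.10 and Sox21 -0.20. That scaling moved the median of all genes from 0.04 to 0.23 in total RNA and from -0.04 to -0.38 in efficiency at 2 h. Causes were not tested. Low counts limit the precision of the total RNA values, with 35 to 94 counts for Sox21 at 2 h.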

Other observations

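Of 10 further Sox genes looked up in the footprint tables, Sox12, the third SoxC member, and Sox13, the third SoxD member, passed the filter on low counts. Sox13 was at 10.58 to 13.32 CPM in vehicle and 3.44 to 7.11 CPM after IFN-β at 2 h, with no overlap, and fell by 0.97 on the log2 scale (SE 0.21, edgeR adjusted p = 0.0249). At 14 h its difference was 0.09 (adjusted p = 0.619), and the effect of IFN-β differed between the times by 1.04 (SE 0.25, edgeR adjusted p = 0.00568). Sox12 was not called at either time (-0.34 and 0.04, edgeR adjusted p = 0.239 and 0.772). The lists of these genes were chosen with earlier results known.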
